A study of Mus musculus with 4 samples.

Results

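The genes described here encode matrix metalloproteinases (Mmp), ADAMTS proteases with the related ADAMTS-like proteins (Adamts, Adamtsl) and tissue inhibitors of metalloproteinases (Timp). Members were taken by gene symbol alone, as the symbols that start with Mmp or Timp and a digit or with Adamts. They came to 31 of the 25050 genes in the table. The family itself was chosen with earlier results of these data known, so its shares below are no independent test. RNA was sequenced from HT-22, an immortalised mouse line labelled as hippocampal neurons, at passage 21 to 24, in 4 libraries. Wild type cells, called controls below, gave 2 of them, and cells with the genotype Nsmce1 overexpression, titled Nsmce1-pb and called Nsmce1 cells below, gave the other 2. The series' design text calls the controls both uninduced, beside an inducible Nsmce1, and wild type, so what the controls carry is not settled by the labels. No promoter, inducing agent or clone number is named for the transgene, and nothing says whether the libraries of a group are separate cultures. The p-values therefore measure only the spread between these samples.

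Matrix metalloproteinases are zinc enzymes that cut collagens, gelatin and other proteins of the extracellular matrix. ADAMTS proteases are secreted relatives that cut proteoglycans such as versican and aggrecan, process procollagen or act on microfibrils, and ADAMTS-like proteins share their ancillary domains but have no catalytic domain. TIMPs bind the active site of these enzymes and block it. In brain, the enzymes and their inhibitors take part in remodelling of perineuronal matrix and of the blood-brain barrier.

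The normalised read count of Nsmce1 was 1108 and 1206 in control libraries 1 and 2 against 17851 and 16525 in Nsmce1 libraries 1 and 2, which follows the labels, and all values below keep this order. The whole reads behind the table came to between 25787452 and 44602989 a library. Defining markers of neurons were scarce: 8 of 14 listed neuron markers had a row in the table, and 3 of them averaged 10 normalised reads or more. Dcx and Nefm were under 5 normalised reads in every library, and the most abundant marker was the tubulin gene Tubb3, at 622 and 574 in the controls against 446 and 611 in the Nsmce1 cells. Rbfox3, Map2, Snap25, Nefl, Nefh and Gad1 were not analysed here. Fibroblast and mesenchymal markers were abundant, with a summed level of 415180 to 494803 normalised reads a library against 511 to 754 for the neuron markers. Collagen gene Col1a2 led them, at 189826 and 171347 in the controls against 180553 and 163626 in the Nsmce1 cells. Not every marker of that list was abundant. Lum had 3.77 and 13.7 normalised reads in the controls against 0 and 0 in the Nsmce1 cells, and Fap was not analysed here. The summed markers of microglia and leukocytes were at 1643 to 2338 normalised reads, nearly all of it from Tmem119 (1494 to 2184), while Ptprc, Csf1r and Cx3cr1 were at 0 in at least 1 library. Endothelial markers summed to 43.8 to 69.5.

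Upstream sequences are shown for 4 genes on which the results turn. Adamts1 and Timp3 had among the smallest unadjusted p-values of the family in either direction, and Mmp14 and Timp2 were its most abundant protease and inhibitor. RefSeq's promoter table (GRCm38.p6) held 21 of the 31 genes, and the 250 bases before the annotated start are printed 5′ to 3′ on the gene's own strand. Capitals mark GC boxes (GGGCGG or its reverse complement) and TATA boxes (TATAAA or its reverse complement). The windows are chr16:85803114-85803363 on the minus strand (Adamts1), chr10:86300162-86300411 on the plus strand (Timp3), chr14:54431348-54431597 on the plus strand (Mmp14) and chr11:118355412-118355661 on the minus strand (Timp2).
Adamts1: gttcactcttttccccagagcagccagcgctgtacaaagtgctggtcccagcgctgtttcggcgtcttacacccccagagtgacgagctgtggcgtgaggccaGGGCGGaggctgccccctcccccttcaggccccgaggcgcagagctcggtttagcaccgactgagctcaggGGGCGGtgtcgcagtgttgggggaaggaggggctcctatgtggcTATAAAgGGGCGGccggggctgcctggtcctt
Timp3: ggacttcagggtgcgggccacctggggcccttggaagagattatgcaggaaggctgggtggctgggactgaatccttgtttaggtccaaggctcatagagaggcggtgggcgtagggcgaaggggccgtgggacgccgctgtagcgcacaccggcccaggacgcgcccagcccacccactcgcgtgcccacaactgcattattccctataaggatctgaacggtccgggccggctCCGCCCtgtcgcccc
Mmp14: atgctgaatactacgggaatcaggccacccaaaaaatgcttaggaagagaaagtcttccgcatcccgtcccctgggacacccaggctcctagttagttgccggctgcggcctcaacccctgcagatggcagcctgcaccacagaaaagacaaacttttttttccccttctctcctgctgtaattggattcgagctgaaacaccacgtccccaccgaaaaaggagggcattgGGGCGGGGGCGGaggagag
Timp2: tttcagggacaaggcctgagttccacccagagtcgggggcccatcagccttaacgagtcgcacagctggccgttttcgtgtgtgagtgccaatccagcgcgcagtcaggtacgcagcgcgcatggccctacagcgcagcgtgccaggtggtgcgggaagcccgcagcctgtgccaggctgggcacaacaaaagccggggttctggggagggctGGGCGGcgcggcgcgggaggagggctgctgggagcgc

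The Adamts1 window held 3 GC boxes and 1 TATA box, the last 1 base before the GC box nearest the start. The Timp3 and Timp2 windows held 1 GC box each and the Mmp14 window 2 that abut, and none of these 3 windows held a TATA box. Among the 15 tested genes with a promoter in the table, 13 held a GC box, against 32.7% of all 32851 promoters of the same length. Only Adamts1 of these 15 held a TATA box, against 12.4% of all promoters. The AP-1 motif TGANTCA, known from inducible metalloproteinase promoters, was in 0 of the 15 and in 6.75% of all promoters. These are matches of letters in a window on both strands, and show no binding. The 15 genes had passed the read filter and were counted by gene, while the 32851 promoters were unfiltered and counted singly. Promoters of other tested genes were not compared, so these shares are not shown to be particular to the family. Promoters of Adamts4, Adamts5, Adamts6, Adamts7, Adamts10, Adamts15, Adamts16, Mmp2, Mmp9 and Mmp19 were not used here.

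Of the 31 genes, 24 averaged 10 normalised reads or more over the 4 libraries and were tested: 7 Mmp, 11 Adamts, 3 Adamtsl and 3 Timp genes. None of the 24 passed in the comparison of Nsmce1 cells with controls (limma with a mean-variance trend, Benjamini-Hochberg adjustment over 15540 genes, threshold 0.05), where 30 genes did, or 0.193% of all tested genes (0.103% higher, 0.0901% lower). The smallest limma adjusted p of the family was 0.168. At an unadjusted limma p under 0.05 stood 7 of the 24, 4 higher and 3 lower, against 7.92% of all tested genes (4.32% higher, 3.6% lower). Limma voom on the recovered whole reads also called 0 of them and put 7 under an unadjusted p of 0.05. The values of the 2 groups did not overlap for 12 of the 24, 7 higher and 5 lower, beside 39.1% of all tested genes (20.8% higher, 18.3% lower). The family divided into 11 genes above and 13 below 0, with a median log2 fold change of -0.01, while over all tested genes 51.3% lay above 0 and the median was 0.01. The median size of the change, regardless of sign, was 0.21 on the log2 scale against 0.12 over all tested genes. In these cultures, less RNA per cell and fewer cells of a kind cannot be told apart.

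**Figure D1:**
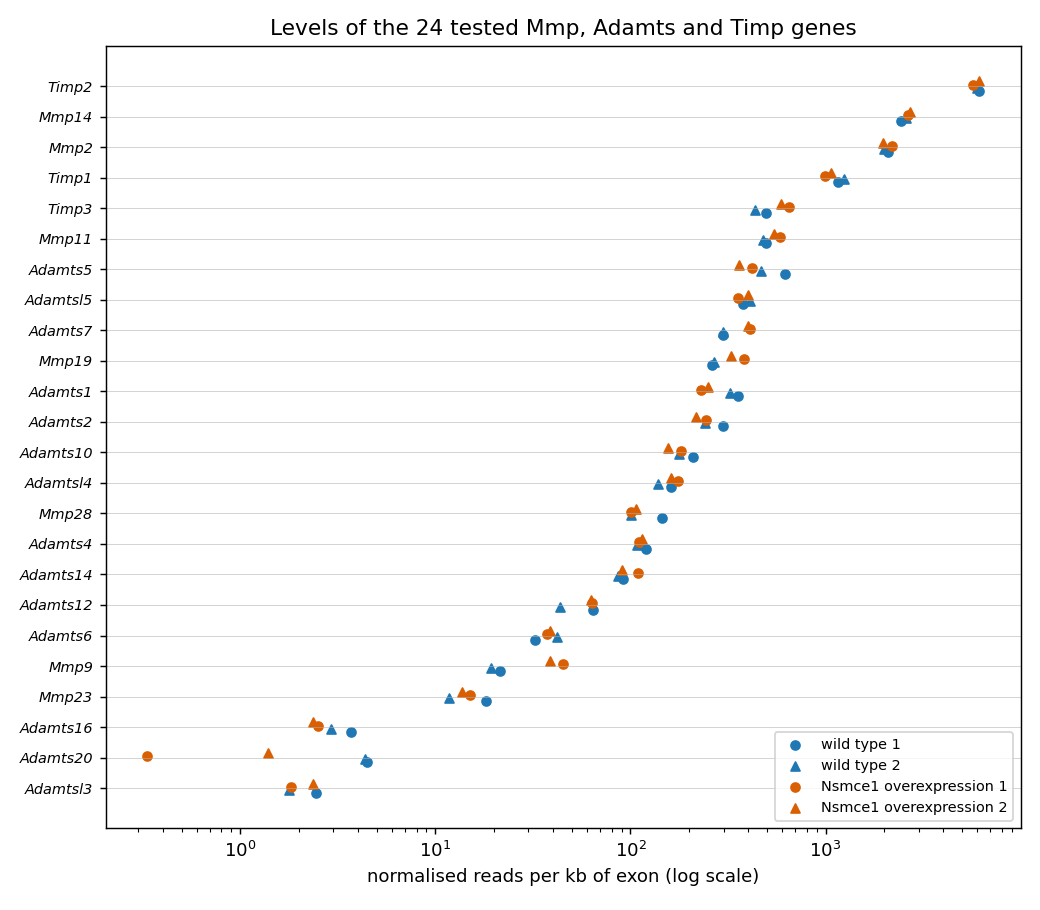
Level of each of the 24 tested genes in each library, as normalised reads per kilobase of exon on a log axis; blue symbols are wild type libraries and orange symbols Nsmce1 overexpression libraries, circles replicate 1 and triangles replicate 2. Timp2, Mmp14 and Mmp2 lie at the top, and Mmp9, Mmp19, Timp3 and Adamts7 show orange symbols to the right of the blue ones.

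Compared per kilobase of exon, Timp2, Mmp14 and Mmp2 led the family and together made up 67.8% of its summed level. Timp2, which inhibits metalloproteinases and also bridges Mmp14 to the proenzyme of Mmp2, stood between 5677 and 6117 normalised reads per kilobase in the 4 libraries. Mmp14, the membrane-anchored enzyme that activates Mmp2, stood between 2446 and 2725, and Mmp2, the gelatinase A, between 1981 and 2204. Each of these ranges lay apart from the next. Timp1 followed at 993 to 1242, while the ranges of Timp3 (436 to 649), Mmp11 (478 to 582) and Adamts5 (359 to 618) overlapped. At the other end of the tested genes, Adamts16, Adamts20 and Adamtsl3 were under 5 normalised reads per kilobase in every library. The plot of levels by library shows that the spread between genes was far wider than that between libraries. The summed level of Timp genes was 7765 and 7666 normalised reads per kilobase in the controls against 7320 and 7771 in the Nsmce1 cells, so the groups overlapped. That of Mmp genes was 5471 and 5463 in the controls against 5973 and 5738 in the Nsmce1 cells, which did not overlap. Mmp14 and Mmp2 held most of this sum, Mmp2 alone overlapped between the groups, and the sum was not tested.

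Gelatinases cut denatured collagen and basement membrane collagen. Mmp9 (ENSMUSG00000017737, chromosome 2), the gelatinase B, had 75.4 and 68.5 normalised reads in the controls against 159 and 137 in the Nsmce1 cells. Both Nsmce1 libraries lay above both control libraries, and the level was 2.04-fold higher. Its log2 fold change was 1.03 (SE 0.206, 95% interval 0.53 to 1.53, limma adjusted p = 0.227), and it lay between 0.92 and 1.13 with any single library left out. Mmp2 (chromosome 8) had 7013 and 6746 normalised reads in the controls against 7430 and 6679 in the Nsmce1 cells. Its groups overlapped, with a log2 fold change of 0.03 and an interval of -0.17 to 0.24 (limma adjusted p = 0.947). Of the gelatinases, then, only Mmp9 had groups that lay apart.

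Mmp14 (chromosome 14) had 14581 and 15408 normalised reads in the controls against 15746 and 16243 in the Nsmce1 cells. The groups did not overlap, but the gap was small against the spread within them (log2 fold change 0.09, interval -0.08 to 0.27, limma adjusted p = 0.779), and the value was 0.054 without control replicate 1. Among the other membrane-type enzymes, Mmp15 and Mmp24 did not reach the minimum for the test. Mmp24 had 3.77 and 0 normalised reads in the controls against 0 and 5.11 in the Nsmce1 cells, with overlapping groups.

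Mmp19 (ENSMUSG00000025355, chromosome 10), a secreted enzyme that cuts basement membrane proteins, had 924 and 943 normalised reads in the controls against 1353 and 1151 in the Nsmce1 cells. The groups did not overlap, and the log2 fold change of 0.42 (1.34-fold, SE 0.113, interval 0.14 to 0.69) missed the threshold (limma adjusted p = 0.413). The median over the 752 tested genes of chromosome 10 was 0.14 on the log2 scale, and Mmp19 stood at 0.28 with that median removed. In the reference annotation Mmp19 shares 789 exonic bases with Tmem198b on the opposite strand, whose reads cannot be told apart if strand was not used. Tmem198b had 897 and 957 normalised reads in the controls against 983 and 819 in the Nsmce1 cells, so its groups overlapped.

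Mmp11 (chromosome 10), the stromelysin 3, which furin activates inside the cell, had 1378 and 1329 normalised reads in the controls against 1617 and 1511 in the Nsmce1 cells. The groups did not overlap, and the log2 fold change was 0.21 (interval -0.01 to 0.43, limma adjusted p = 0.651), or 0.07 with the chromosome median removed. It shares 155 exonic bases with Chchd10 on the opposite strand, which had at most 30.2 normalised reads in any library. Mmp28 (chromosome 11), the epilysin, had 563 and 389 normalised reads in the controls against 392 and 413 in the Nsmce1 cells, where control replicate 1 alone stood high. Its log2 fold change of -0.22 (limma adjusted p = 0.818) became 0.05 without that library. Mmp23 (chromosome 4) had 42.8 and 27.4 normalised reads in the controls against 35 and 32.1 in the Nsmce1 cells, and its interval of -0.89 to 0.83 leaves the sign undetermined.

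**Figure D2:**
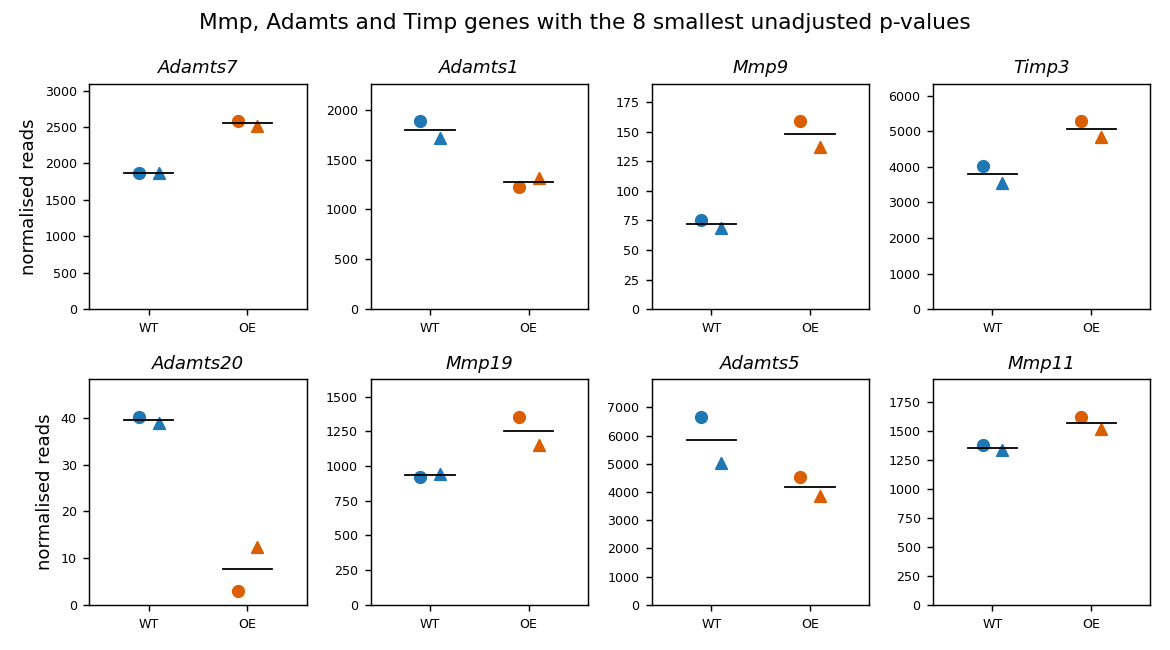
Normalised reads of the 8 genes of the family with the smallest unadjusted limma p, per library, from 0; WT is wild type, OE is Nsmce1 overexpression, circles are replicate 1, triangles replicate 2 and bars the group means. The groups do not overlap in any of the 8 panels, with Adamts7, Mmp9, Timp3, Mmp19 and Mmp11 higher and Adamts1, Adamts20 and Adamts5 lower in overexpressing cells.

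Of the 5 ADAMTS hyalectanases with a row in the table, which cut versican and aggrecan, 4 were tested. All 4 log2 fold changes lay below 0 (median -0.49), while 51.3% of all tested genes lay above 0. Adamts4 was near 0 among them, at -0.02, and stood at 0.058 without control replicate 1. Adamts20 rested on few reads, and the untested Adamts15 had reads in the Nsmce1 cells only. Adamts1 (ENSMUSG00000022893, chromosome 16), a versican-cutting enzyme, had 1886 and 1719 normalised reads in the controls against 1226 and 1317 in the Nsmce1 cells. The groups were well apart, with a 1.42-fold higher level in the controls (log2 fold change -0.50, SE 0.0969, interval -0.74 to -0.27, limma adjusted p = 0.203). Adamts5 (ENSMUSG00000022894, chromosome 16), the main aggrecan-cutting enzyme of mouse cartilage, had 6663 and 5042 normalised reads in the controls against 4521 and 3870.3 in the Nsmce1 cells. Its groups did not overlap either, but the control libraries differed by more than the gap between the groups (log2 fold change -0.47, SE 0.149, interval -0.83 to -0.11, limma adjusted p = 0.509). Without control replicate 1 the value was -0.27.

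Adamts1 and Adamts5 are direct neighbours in the order of tested genes on chromosome 16 in GENCODE M21. Over the 448 tested genes of that chromosome the median was 0.17 on the log2 scale, opposite in sign to both. Adamts1 was 19th and Adamts5 23rd from the lowest of the 448. With the chromosome median removed, Adamts1 stood at -0.67 (limma adjusted p = 0.0970) and Adamts5 at -0.64 (limma adjusted p = 0.357). The 10 tested genes nearest to the pair, 5 on each side, had log2 fold changes between -0.16 and 0.30 with a median of 0.07, and 7 of them lay above 0. The chromosome median of 0.17 thus lies above the local one. Its removal takes both genes further from 0 than removal of the local median would. App, the amyloid precursor gene that the series' design text names, lies 2 steps before Adamts1 and stood at 0.07 (interval -0.11 to 0.24). In the plot of chromosome 16 in gene order, both hyalectanases lie below the nearest genes on either side, while 4930404I05Rik (-0.48) and Dnajc28 (-0.59), 20 and 31 steps away and named after their values were seen, stand about as low with wider intervals.

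**Figure D3:**
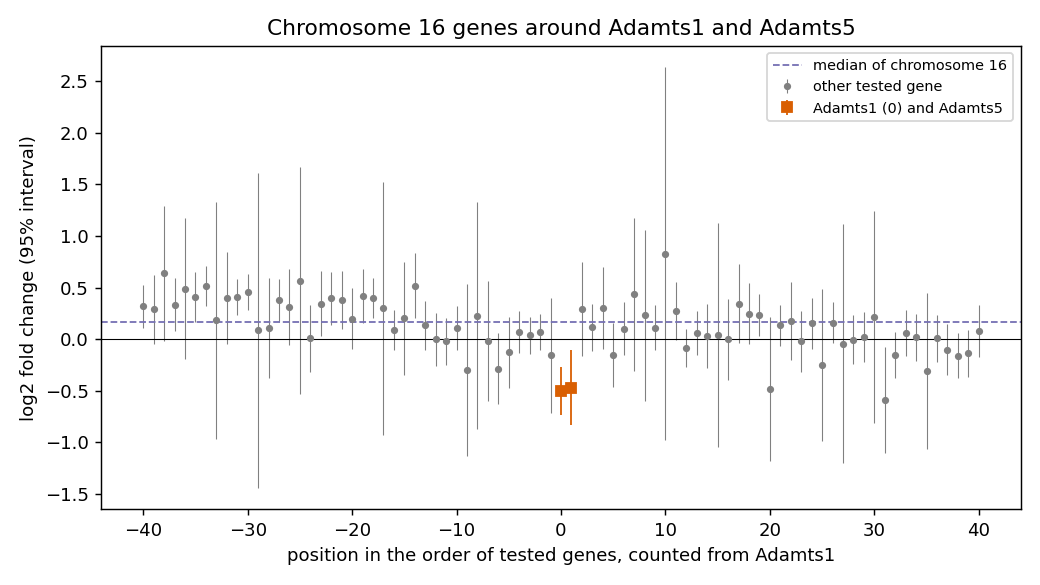
Log2 fold change (overexpression over wild type) with its 95% limma interval for tested genes up to 40 steps on either side of Adamts1 in the gene order of chromosome 16; the dashed line is the chromosome median of 0.17. Adamts1 and Adamts5 (orange squares) stand at -0.50 and -0.47, below the 5 tested genes next to them on each side.

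Adamts20 (chromosome 15), a hyalectanase known from the belted coat mutant, was close to the limit of counting. It had 40.2 and 39 normalised reads in the controls against 3 and 12.4 in the Nsmce1 cells, from 32, 37, 3 and 17 whole reads. The groups did not overlap, and the log2 fold change of -2.47 had a wide interval of -4.05 to -0.89 (limma adjusted p = 0.399). It was -1.60 without Nsmce1 replicate 1 and -3.34 without Nsmce1 replicate 2. Adamts4 (chromosome 1), another aggrecan-cutting enzyme, had 576 and 519 normalised reads in the controls against 532 and 549 in the Nsmce1 cells. Its groups overlapped, and its log2 fold change was -0.02 (interval -0.30 to 0.27, limma adjusted p = 0.986). The value was 0.058 without control replicate 1. Adamts15, the fifth hyalectanase with a row in the table, was not tested, with no read in either control library against 8 and 2.19 normalised reads in the Nsmce1 cells.

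Adamts7 (ENSMUSG00000032363, chromosome 9), which binds and cuts cartilage oligomeric matrix protein, had the smallest limma p of the family. It stood at 1871 and 1872 normalised reads in the controls against 2580 and 2519 in the Nsmce1 cells. Replicates were close and the groups were well apart, at 1.36-fold (log2 fold change 0.45, SE 0.0791, interval 0.25 to 0.64, limma adjusted p = 0.168). The value lay between 0.43 and 0.46 with any single library left out. Adamts7 shares 122 exonic bases with Tbc1d2b on the opposite strand, which had 2551 and 2045 normalised reads in the controls against 2276 and 2265 in the Nsmce1 cells, so the groups of Tbc1d2b overlapped, unlike those of Adamts7. Adamts12 (chromosome 15), the closest relative of Adamts7, had 700.4 and 473 normalised reads in the controls against 697 and 687 in the Nsmce1 cells. Only control replicate 2 stood apart there (log2 fold change 0.27, interval -0.20 to 0.73, limma adjusted p = 0.769), and without it the value was -0.02.

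The procollagen N-proteinases trim the amino-terminal propeptide of fibrillar collagens. Adamts2 (chromosome 11) had 2778 and 2254 normalised reads in the controls against 2284 and 2015 in the Nsmce1 cells (log2 fold change -0.22, interval -0.53 to 0.09, limma adjusted p = 0.723). Adamts14 (chromosome 10) had 474 and 449.7 in the controls against 569 and 472 in the Nsmce1 cells (log2 fold change 0.17, interval -0.17 to 0.50, limma adjusted p = 0.798). Both genes overlapped between the groups, and Adamts14 stood at 0.03 with the chromosome 10 median removed. Single libraries moved both values: Adamts2 stood at -0.071 without control replicate 1 and -0.37 without control replicate 2, and Adamts14 at 0.033 without Nsmce1 replicate 1 and 0.30 without Nsmce1 replicate 2. Adamts10 (chromosome 17), which takes part in fibrillin microfibril assembly, had 1732 and 1472 normalised reads in the controls against 1498 and 1285 in the Nsmce1 cells (log2 fold change -0.20, limma adjusted p = 0.731). Its relative Adamts6 (chromosome 13) had 254 and 326 in the controls against 292 and 302 in the Nsmce1 cells (log2 fold change 0.04, limma adjusted p = 0.974). The groups of both overlapped, and Adamts10 ranged from -0.32 without control replicate 2 to -0.086 without control replicate 1. Adamts16 (chromosome 13) had 25.1 and 20 normalised reads in the controls against 17 and 16.1 in the Nsmce1 cells, with an interval of -1.38 to 0.54 around -0.42, and stood at -0.26 without control replicate 1.

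Among the tested ADAMTS-like genes, whose proteins bind microfibrils, 1 lay above and 2 below 0, and the values were small. Adamtsl5 (chromosome 10) was the most abundant per kilobase, at 1792 and 1943 normalised reads in the controls against 1690 and 1896 in the Nsmce1 cells (log2 fold change -0.06, interval -0.30 to 0.18, limma adjusted p = 0.914). It stood at -0.20 with the chromosome median removed. Adamtsl4 (chromosome 3) had 675 and 580.3 in the controls against 738 and 676 in the Nsmce1 cells, where the nearest values of the groups nearly met (log2 fold change 0.17, limma adjusted p = 0.768). It was 0.065 without control replicate 2 and 0.28 without control replicate 1. Adamtsl3 (chromosome 7) had 18.9 and 13.7 in the controls against 14 and 18.2 in the Nsmce1 cells, with overlapping groups (log2 fold change -0.01, interval -1.09 to 1.08, limma adjusted p = 0.999).

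Of the 3 tested inhibitors, 1 lay above and 2 below 0. Timp3 (ENSMUSG00000020044, chromosome 10), which binds to the matrix and inhibits ADAMTS hyalectanases as well as metalloproteinases, had 4030.3 and 3552 normalised reads in the controls against 5283 and 4826 in the Nsmce1 cells. The groups did not overlap, at 1.33-fold (log2 fold change 0.42, SE 0.0960, interval 0.18 to 0.65, limma adjusted p = 0.321). With the median of chromosome 10 removed it stood at 0.28 (interval 0.04 to 0.51). Timp1 (chromosome X) had 1035 and 1103 in the controls against 882 and 942 in the Nsmce1 cells, where both Nsmce1 libraries were lower (log2 fold change -0.23, interval -0.47 to 0.01, limma adjusted p = 0.652). Timp2 (chromosome 11) had 23786 and 23329 in the controls against 22119 and 23833 in the Nsmce1 cells, with overlapping groups and a log2 fold change of -0.04 (interval -0.22 to 0.14, limma adjusted p = 0.929).

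Timp1, Timp3 and Timp4 each lie inside a synapsin gene on the opposite strand, Timp1 in Syn1, Timp3 in Syn3 and Timp4 in Syn2. Synapsins coat synaptic vesicles. Timp3 shares 1733 exonic bases with Syn3, which had 11.3 and 16.9 normalised reads in the controls against 10 and 0 in the Nsmce1 cells, a small amount beside Timp3. Timp1 shares 0 exonic bases with Syn1, whose 1186 and 1087 in the controls against 1024 and 1219 in the Nsmce1 cells overlapped. In the same annotation Mmp28 shares 466 exonic bases with 1700020L24Rik on the opposite strand, while Adamts1, Adamts5, Adamts20 and Mmp9 overlap no annotated gene. Timp4 had no read in either control library against 3 and 2.19 normalised reads in the Nsmce1 cells.

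**Figure D4:**
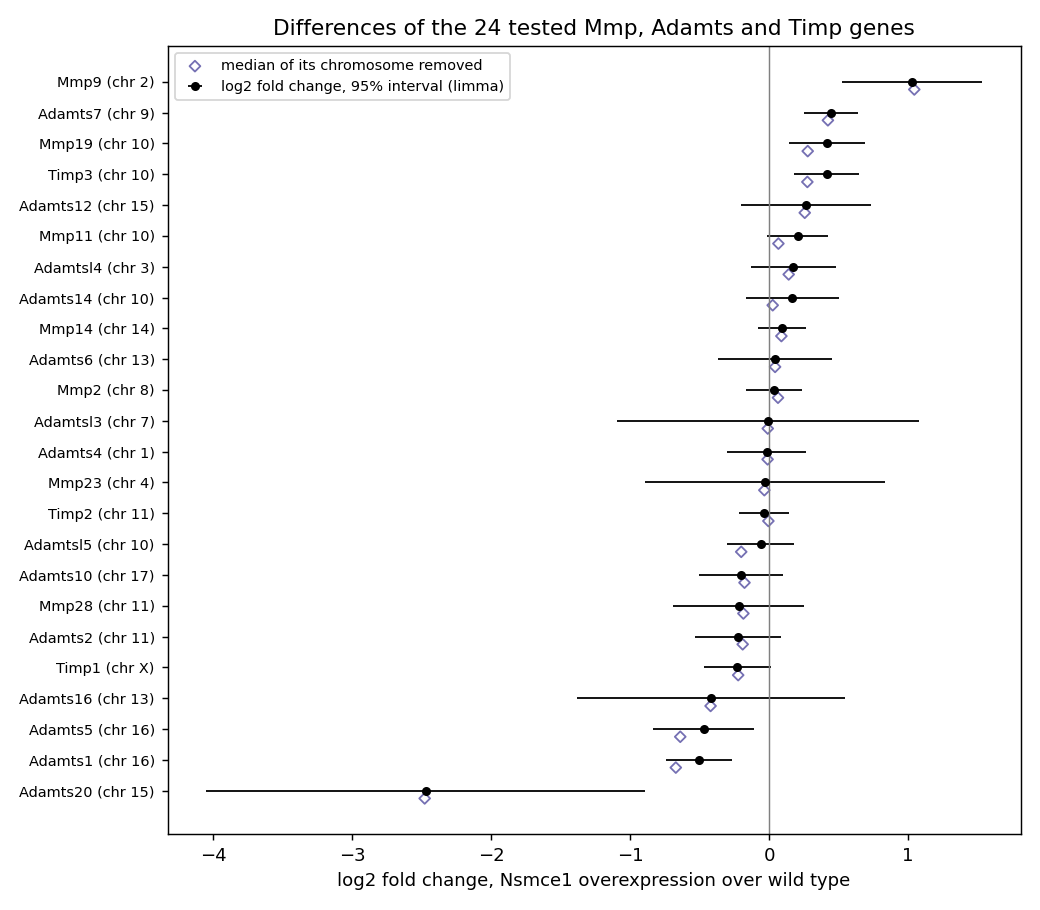
Log2 fold change of each tested gene, overexpression over wild type, as black points with 95% limma intervals; open diamonds give the value with the median of the gene's chromosome removed. The intervals of Mmp9, Adamts7, Mmp19 and Timp3 lie above 0 and those of Adamts5, Adamts1 and Adamts20 below 0, and none of the 24 genes passed the adjusted threshold.

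The 7 genes below the minimum for the test held 0 to 10 whole reads in any library. Adamts13, the protease of von Willebrand factor, had 0 and 2.11 normalised reads in the controls against 8 and 5.11 in the Nsmce1 cells. Adamtsl2 had 0, 10.5, 0 and 6.57 in the same order. Mmp15, Mmp21 and Timp4, named here after their values were seen, stayed under 5 in every library. In the same order Mmp15 had 3.77, 0, 3 and 0 normalised reads, and Mmp21 had 2.19 in Nsmce1 replicate 2 and no read elsewhere. Adamts13, Adamts15 and Timp4 had groups that did not overlap, higher in the Nsmce1 cells, from at most 8 normalised reads. The share of such genes among all genes below the minimum was not computed, so nothing is read from these 3. Both control libraries held fewer whole reads (25787452 and 31010351) than both Nsmce1 libraries (32516117 and 44602989). The part of depth in these values was not tested. Without the filter, 0 of the 31 genes passed limma's adjusted threshold. Under an unadjusted limma p of 0.05 stood 10 of the 31, against 1860 of all 25050 genes.

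The other genes of matrix turnover were taken from lists of activators, inhibitors, sheddases and substrates, and 0 members of any of the 7 lists passed (limma, 0.193% of all tested genes). Among activating proteases, 7 of 14 were tested, with 4 above and 3 below 0 (median 0.06). Ctsl, the lysosomal cathepsin L and the most abundant of them, had 24584 and 26713 normalised reads in the controls against 21998 and 22982 in the Nsmce1 cells. Furin, the convertase that activates Mmp11 and Mmp14, had 3549 and 3288 in the controls against 3676 and 3873 in the Nsmce1 cells. Their groups did not overlap, with log2 fold changes of -0.19 and 0.14 (limma adjusted p = 0.626 and 0.723).

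Other inhibitors and regulators had 10 of 18 tested, 6 above and 4 below 0 (median 0.02). Serpina3n, a secreted serine protease inhibitor, was the nearest to the threshold, at 366 and 339 normalised reads in the controls against 861 and 709 in the Nsmce1 cells (log2 fold change 1.15, SE 0.139, interval 0.81 to 1.49, limma adjusted p = 0.0587). Serpinf1, the pigment epithelium-derived factor, stood at -0.30 (limma adjusted p = 0.350), and Lrp1, a clearance receptor for many proteases and their complexes, at 0.19. Of 9 tested ADAM sheddases and tolloid proteases, 5 lay above and 4 below 0 (median 0.06). Adam22, an ADAM protein without protease activity that serves as a neuronal receptor, had 464 and 451 in the controls against 223 and 236 in the Nsmce1 cells (log2 fold change -0.99, SE 0.130, interval -1.31 to -0.68, limma adjusted p = 0.0731). Adam33 stood at -1.01 from low counts (limma adjusted p = 0.480) and Adam9, the most abundant, at -0.24 with overlapping groups.

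Among substrates, 9 of 17 hyalectan, link protein and hyaluronan genes were tested, 5 above and 4 below 0 (median 0.02). Vcan, encoding versican, had 31864 and 27080.5 normalised reads in the controls against 28810 and 30972 in the Nsmce1 cells, with overlapping groups (log2 fold change 0.02, interval -0.22 to 0.27). The hyaluronan receptor Cd44 stood at -0.28 and the link protein gene Hapln4 at -0.42 (limma adjusted p = 0.435 and 0.462). Fibrillar collagens, cross-linking enzymes and associated matrix had 3 of 16 tested genes above and 13 below 0, with a median of -0.13 beside 0.01 over all tested genes. Col5a3 stood at -0.66 (limma adjusted p = 0.401) and Loxl1, a lysyl oxidase, at -0.26 (limma adjusted p = 0.511). Fibrillin microfibril genes had 8 above and 7 below 0 (median 0.03). Mfap5, a microfibril glycoprotein, had 685 and 687 in the controls against 428 and 307 in the Nsmce1 cells (log2 fold change -0.92, limma adjusted p = 0.203), Ltbp2 stood at 0.64 and Efemp1 at -0.15.

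A list of AP-1, ETS and other factors that can induce metalloproteinase genes had 9 of 17 above and 8 below 0 (median 0.002). Fosl2, an AP-1 subunit, had 3809 and 4005 normalised reads in the controls against 5265 and 4830.2 in the Nsmce1 cells (log2 fold change 0.37, limma adjusted p = 0.297). Outside the AP-1 and ETS families, Egr1, an immediate early factor, stood at -0.53 (limma adjusted p = 0.446). Nfkb1, also outside them and the most abundant of the list, stood at -0.01. Markers of other cell types were read beside these results, and their part in them was not tested. The summed astrocyte markers were 5173 and 5102 normalised reads in the controls against 6495 and 6786 in the Nsmce1 cells, and those of microglia and leukocytes 2338 and 1970.4 against 1787 and 1643, so neither sum overlapped between the groups. Within both of these lists the tested markers did not share a direction. Aldh1l1, a folate enzyme gene used as an astrocyte marker, stood at 57.8 and 65.3 normalised reads in the controls against 14 and 12.4 in the Nsmce1 cells (limma adjusted p = 0.118), opposite to the astrocyte sum. Cd68, a macrophage marker, stood at 88 and 70.6 against 132 and 101, opposite to the microglia and leukocyte sum, and both genes were named after their values were seen. Of 10 tested fibroblast and mesenchymal markers 2 lay above 0 (median -0.09), and the glutamate transporter Slc1a3, the most abundant astrocyte marker, stood at 0.49 (limma adjusted p = 0.181), with Gfap at 7.54, 0, 5 and 3.65 normalised reads. Cspg4, the most abundant marker of the oligodendrocyte lineage, stood at -0.11, while the other 2 tested markers of that list lay above 0 (median of the 3, 0.20). Tmem119 stood at -0.38 and Vwf, the most abundant endothelial marker, at 0.13 from low counts.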

How the data were processed

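The authors deposited 1 log2 value per gene and library, with HISAT and Cufflinks named as tools and mm9 as the build per the submitters' processing notes, without versions. Gene assignment and use of strand are not given in the sources used here. With the log2 undone and 1 subtracted, 100% of values in each library were whole multiples of 1 step within 0.001 read, so whole reads could be recovered, and limma voom on these called 20 genes against 30. A read was worth 0.730 to 1.26 normalised reads. Genes with a mean of at least 10 normalised reads were kept (15540 of 25050), and limma 3.58.1 (R 4.3.3) with a mean-variance trend was fitted to the deposited log2(value + 1) scale, which understates the change of low genes. Group was the only term, over all 4 libraries. P-values are two-sided. With 2 libraries against 2 an exact permutation test of 1 gene cannot go below 0.333, so tests rest on limma's pooled variance (6.10 total degrees of freedom). The mean chi-square between replicate libraries, per gene, was 18.3 for wild type and 25.3 for overexpression, far above counting noise, so none was treated as a repeat of another. The steps were tested on simulated data with large changes planted in abundant genes, which does not cover small changes or genes of few reads. Alternatives were other pseudocounts, filters, scalings, variance settings and thresholds, a replicate block, fits without single libraries and, added after seeing the data, removal of each chromosome's median. Chromosome, gene order, exon length and overlap came from GENCODE M21 (GRCm38) by gene identifier for all 31 genes of the family. That build differs from the authors', so the only coordinates given are those of RefSeq's promoter windows. The genes of the family and the lists were chosen with earlier results of these data known. Named genes were every tested gene of the family, others reaching 5 normalised reads in a library, and from each list the 2 smallest p-values and the most abundant gene (for cell types, the most abundant marker). Markers at or near 0 and genes overlapping or neighbouring the family are named beside the results they touch.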

Additional observations from a re-analysis of the deposited data

How the results depend on the processing

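None of the 24 tested genes of the family passed the adjusted threshold under any of the alternatives run, and the smallest limma adjusted p among them was 0.0922, for Adamts5 with the replicate block. The number of genes called over the whole table, 30, was 16 without a filter, 18 with quantile normalization, 9 for limma without trend, 72 with robust variances, 11 at a threshold of 0.01 and 69 at 0.10. Leaving out 1 library gave 2 to 75 calls: 2 without wild type replicate 1, 9 without wild type replicate 2, 51 without overexpression replicate 1 and 75 without overexpression replicate 2. In such a fit the lone library is assumed to vary like the other group. With the replicate number as a block (replicate block) 60 genes were called. The deviations of same-numbered libraries correlated with r = 0.00682 across genes. Whether same-numbered libraries shared a culture or handling was not tested.

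Of 380 values of the tested genes under the 16 other settings, 365 kept their direction and 15, from 9 genes, did not. With quantile normalization Adamtsl3 stood at 0.016 and Timp2 at 0.029, and with limma voom Adamtsl3 stood at 0.012. With 1 library left out, log2 fold changes ranged from -0.23 to 0.21 for Adamtsl3, -0.34 to 0.28 for Mmp23, -0.092 to 0.058 for Adamts4, -0.14 to 0.23 for Adamts6, -0.48 to 0.050 for Mmp28, -0.018 to 0.55 for Adamts12, -0.14 to 0.023 for Adamtsl5, -0.042 to 0.11 for Mmp2 and -0.091 to 0.017 for Timp2. The cause was not tested. The stricter filter of 50 normalised reads removed Adamts16, Adamts20, Adamtsl3 and Mmp23, which so have no value there. Removal of chromosome medians was chosen after seeing the data. The median 95% interval of the 24 genes, not adjusted over genes, was 0.61 wide on the log2 scale. Small differences could go undetected with 2 libraries a group. Larger ones could be missed as well, since Mmp9 at 1.03 did not pass (limma adjusted p = 0.227).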
